A study of Homo sapiens with 9 samples.

Results

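The mitochondrial ribosomal protein genes described here were the protein-coding genes whose symbol begins with MRPL or MRPS followed by a number. The count table held 78 of them among 60648 lines, and 77 passed the expression filter, out of 19473 genes tested. All 9 RNA-Seq libraries were used. They came from HEK293-derived human embryonic kidney cells, with 3 libraries per line. T-REx is the parental line, which carries the Tet repressor and no inserted transgene. TC4-2A cells carry an inducible insert for a circRNA made of exons 2A, 2B, 3 and 4 of the survival motor neuron genes SMN1 and SMN2. TL4-2A cells carry an inducible insert for a linear transcript of the same exons. All 3 lines, the parental one included, received doxycycline (Dox) for 96 h. No line was analysed without Dox here, so Dox was common to every comparison, while the effect of line derivation, or a response to Dox particular to a line, cannot be told apart from that of the RNA expressed. The sources used here do not say whether a line was a single clone or a pool, nor whether its 3 libraries were grown as separate cultures. The p-values therefore measure the spread between these libraries, which may be technical. The T-REx libraries served as the control for both other lines, so those comparisons share them.

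Mitochondria translate the few proteins encoded by their own genome on a ribosome of their own, the mitoribosome. Its rRNAs are transcribed from mitochondrial DNA, whereas every one of its proteins is encoded in the nucleus, made in the cytosol and imported. MRPL proteins belong in general to the large subunit, which forms peptide bonds, and MRPS proteins to the small subunit, which binds the mRNA. Some have a bacterial counterpart, and others were gained on the way to the animal mitoribosome. The members were read in 4 classes, each subunit divided into proteins with a bacterial homologue and proteins called specific to mitochondria. MRPS18A and MRPS18B, though homologues of a bacterial protein, were placed among those specific to mitochondria. Despite their symbols, MRPS30 and MRPS18A are proteins of the large subunit. MRPS36 was left out of the classes because it is known as a component of the 2-oxoglutarate dehydrogenase complex. The 37 genes of the mitochondrial genome stood at 0 in every library, so the rRNAs of the mitoribosome and the mRNAs it translates could not be compared with its proteins.

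Levels are given as CPM, which are a gene's counts scaled to a common library total with the TMM sizes of edgeR. Members were ranked by level per kilobase of exon, whereas values in plain CPM are not scaled by length. The median member had 5.40 log2 CPM, above the 3.88 log2 CPM of the median gene tested, and a smaller median standard error of its log2 fold change (0.05 against 0.08). In T-REx cells the level per kilobase was highest for MRPS34, a protein of the small subunit without a bacterial counterpart, at 111 ± 0.740 CPM per kilobase (SD, n = 3). MRPS21 had 72.99 ± 0.779 CPM per kilobase, MRPL51 had 68.8 ± 0.955, MRPL39 had 59.3 ± 2.44 and MRPL37 had 56.6 ± 1.61. In that order MRPS34 stood apart from the others, while the gap between MRPL39 and MRPL37 was near the SD of MRPL39. The order depends on the length used, here all annotated exon bases of a gene. With the length of the longest transcript, 30 of the 35 levels compared moved by more than their SD. MRPS34 then had 116 CPM per kilobase, MRPL51 had 106 and MRPL37 had 91.2, above MRPS21 with 74.9 and MRPL39 with 59.3. Of the exon bases of MRPS34 31.2% were shared with other genes on the opposite strand, the most with EME2. Of those of MRPL51 27.6% were so shared, the most with NCAPD2, whose count was 432 CPM against 95.5 CPM for MRPL51.

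The lowest members also shared exon bases with other genes. MRPL53 had 1 count in all 9 libraries together and failed the expression filter. Of its exon bases 72.8% also belonged to another gene on the same strand. MRPS24 had 0.334 ± 0.0258 CPM per kilobase. Of its exon bases 23.2% were shared with other genes on the same strand, the most with the readthrough gene URGCP-MRPS24. MRPL38 had 0.919 ± 0.0426 CPM per kilobase with 41.1% of its exon bases shared on the same strand. MRPL23 had 1.71 ± 0.232 and MRPL46 had 1.97 ± 0.0605 CPM per kilobase. All 10 members of lowest level shared exon bases with another gene on either strand, and 7 of them did so on the same strand, against 41 and 18 of the 78 members. The median level was 7.78 CPM per kilobase for the 18 members with bases shared on the same strand and 17.5 for the other 60. A read over bases of more than 1 gene can be left uncounted or assigned to either, and the sources used here do not give the counting options for strand or for such reads. The levels of all members that share exon bases, at either end of the order, are therefore uncertain. With the length of the longest transcript MRPL53, MRPS24, MRPL38, MRPL46 and MRPL23 had 0.0303, 0.504, 2.26, 2.27 and 5.53 CPM per kilobase.

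**Figure D1:**
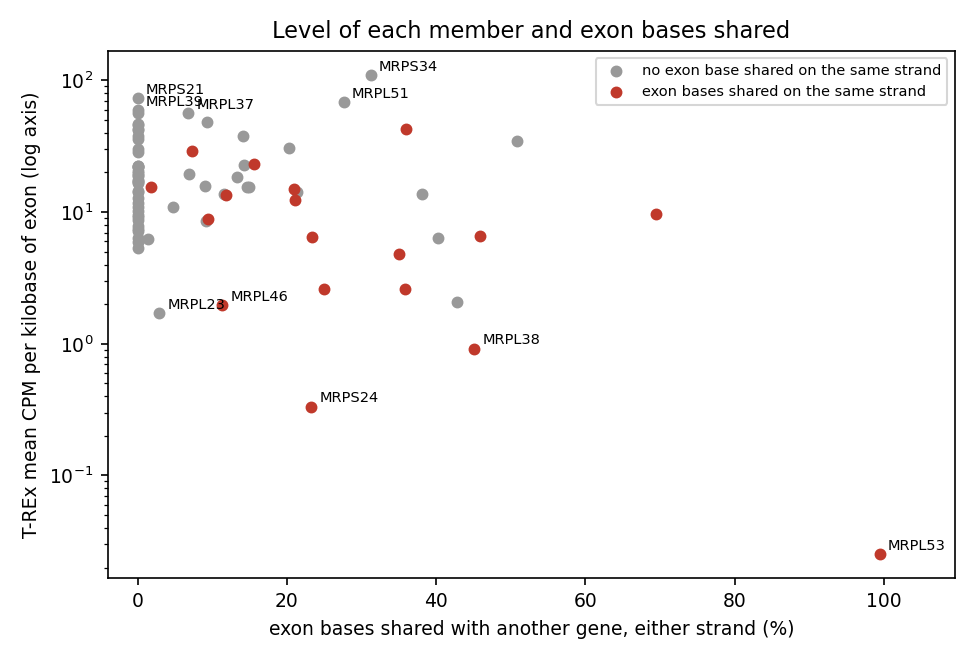
Each point is 1 of the 78 members, with the percentage of its exon bases shared with another gene on either strand (x axis) and its mean level over the 3 T-REx libraries in CPM per kilobase of exon (y axis, logarithmic). Red points share bases on the same strand. MRPL53, MRPS24 and MRPL38 lie at the bottom, and MRPS34 lies at the top.

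The bacterial small-subunit protein S18 has 3 homologues in human cells, MRPS18A, MRPS18B and MRPS18C, which occupy separate places in the mitoribosome. MRPS18A, placed in the large subunit, had 47.5, 47.3 and 49.1 CPM in T-REx, 52.3, 52.6 and 48.6 CPM in the TC4-2A line and 48.98, 47.6 and 51.9 CPM in TL4-2A cells, and these ranges overlapped throughout. MRPS18B had 64.5, 67.2 and 67.6 CPM in T-REx, 72.8, 68.5 and 65.5 CPM in the TC4-2A line and 60.00, 61.2 and 62.2 CPM in TL4-2A cells, where every library lay below those of both other lines. Its log2 fold change in TL4-2A against T-REx cells was -0.12 (SE 0.05, edgeR, adjusted p = 0.0356). MRPS18C had 29.8, 32.2 and 30.8 CPM in T-REx, 33.2, 28.9 and 30.2 CPM in the TC4-2A line and 29.4, 27.9 and 27.7 CPM in TL4-2A cells and was not called in any comparison. Its TL4-2A difference from T-REx cells, -0.13 on the log2 scale (edgeR, adjusted p = 0.0530), was called without T-REx replicate 1, TC4-2A replicate 1 or TL4-2A replicate 1 (edgeR, adjusted p = 0.0362, 0.0475 and 0.0385), and that between the lines without TC4-2A replicate 2 (edgeR, adjusted p = 0.0470).

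Promoters of members were read from RefSeq (GRCh38.p14), in windows from 250 bases before to 50 bases after the start of transcription. Windows were found for 69 of the 78 members, 85 windows in all. Some members had several windows that overlap, such as MRPL47, so the same match can count more than once. Shares are given per window, not per gene. The core CCGGAAG of ETS-family factors, to which GABPA belongs, stood on either strand in 38.8% of the members' windows, against 10.3% of all 35116 windows and 15.8% of those of protein-coding genes tested. The core AAGATGGC, bound by YY1, stood in 27.1% of the members' windows, against 2.89% and 4.36%. The core GCATGCGC of NRF1 stood in 7.06% of them, against 3.05% and 4.44%. For comparison, the CCAAT box was found in 32.9% of the members' windows and 34.6% of all windows, and the TATAAA box in 3.53% and 11.5%. The GC box GGGCGG stood in 60% of the members' windows, in 45% of all windows and in 65.4% of those of protein-coding genes tested. Both strands were searched throughout, and an ETS core followed directly by ATGGC holds a YY1 core too. Of the 85 windows 27 held an ETS core entirely before the start, whereas 16 held a YY1 core over or after the start and 7 held one before it. Among the 24 windows of 20 members that were higher in TC4-2A than in T-REx cells, 29.2% held the ETS core, 20.8% the YY1 core and none the NRF1 core. A match describes these letters only and is not a binding site by itself.

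To show what such a start looks like, 24 bases around the YY1 core (capitals) are given for members on which the comparisons turn. In each the core lies on the strand of the gene and holds an ATG.
MRPL20 (chr1:1407263-1407286, minus strand): acccgggcAAGATGGCagcggcgc
MRPL38 (chr17:75904863-75904886, minus strand): ccggagggAAGATGGCggcgccct
MRPL42 (chr12:93467514-93467537, plus strand): attgaaacAAGATGGCgggttcgt
MRPL46 (chr15:88467365-88467388, minus strand): gagaacgaAAGATGGCggcgcccg
MRPL51 (chr12:6493226-6493249, minus strand): taaggcccAAGATGGCtgtcttcg
MRPS7 (chr17:75261890-75261913, plus strand): ggccagccAAGATGGCtgcccccg
MRPS30 (chr5:44808952-44808975, plus strand): cgcgggcaAAGATGGCggcggcca

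The 150 bases before the start are given for 4 members whose chromosomal neighbourhood moved in one or both of the lines, with the ETS core in capitals. The first pair holds it, and the second pair does not.
MRPL20 (chr1:1407294-1407443, minus strand): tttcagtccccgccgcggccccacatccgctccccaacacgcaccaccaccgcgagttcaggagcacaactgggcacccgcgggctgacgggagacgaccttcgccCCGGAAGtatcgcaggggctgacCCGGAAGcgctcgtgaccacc
MRPS31 (chr13:40771191-40771340, minus strand): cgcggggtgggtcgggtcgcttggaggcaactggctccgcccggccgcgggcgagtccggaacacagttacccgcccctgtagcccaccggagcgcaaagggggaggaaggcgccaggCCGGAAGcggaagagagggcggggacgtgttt
MRPL44 (chr2:223957313-223957462, plus strand): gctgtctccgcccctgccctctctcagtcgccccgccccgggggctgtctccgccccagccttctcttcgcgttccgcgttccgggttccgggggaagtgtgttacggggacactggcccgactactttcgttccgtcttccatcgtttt
MRPS30 (chr5:44808797-44808946, plus strand): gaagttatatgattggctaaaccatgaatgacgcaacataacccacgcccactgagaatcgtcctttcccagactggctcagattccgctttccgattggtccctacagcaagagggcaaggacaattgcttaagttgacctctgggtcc

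The libraries held 16561680 to 21491977 counts, and their TMM factors lay between 0.9906 and 1.014. SMN1 and SMN2, from which the inserts were taken, had 54.8 ± 1.08 CPM together in T-REx, 94.7 ± 2.99 CPM in the TC4-2A line and 62.4 ± 1.49 CPM in TL4-2A cells. All 7 markers of HEK293-derived cells had at least 1 CPM in every line. Their summed level was 1123 to 1157 CPM in T-REx, 883 to 905 CPM in the TC4-2A line and 915 to 939.8 CPM in TL4-2A libraries. VIM and NEFL made up most of that difference. EPCAM went from 122 CPM in T-REx to 83.4 CPM in the TC4-2A line and 81.2 CPM in TL4-2A cells. CDH2 went from 129 to 116 and 115 CPM, and NEFM from 2.36 to 1.47 and 1.97 CPM. By contrast LIN28B had 99.7 CPM in T-REx and 103 CPM in the TC4-2A line, but 86.9 CPM in TL4-2A cells. PAX2 had 7.19, 8.52 and 7.36 CPM in the same order. Of 7 markers of other cell types only COL1A1 reached 1 CPM. Their summed level was 11.2 to 11.8, 9.04 to 9.99 and 8.13 to 8.17 CPM in the same order. In such bulk samples fewer cells of one kind and less RNA per cell cannot be told apart.

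In TC4-2A cells, mitochondrial ribosomal protein mRNAs that differed from T-REx cells were higher. Of the 77 members tested 23 rose (29.9%) and 0 fell at an adjusted p under 0.05 by edgeR's quasi-likelihood test. Over all genes tested 14.2% rose and 14.6% fell. At an unadjusted p under 0.05 the members' counts were 35 higher and 2 lower, and DESeq2 called 17 higher and 0 lower. Without T-REx replicate 1, and also without TC4-2A replicate 3, 1 member was lower. The median log2 fold change of the members was 0.10, against 0.00 over all genes tested, and 64 of the 77 lay above 0. The increases were small. Summed over the 78 members, the libraries had 3969, 4111 and 4074 CPM in T-REx and 4436, 4322 and 4290.4 CPM in TC4-2A cells, so that every TC4-2A library lay above every T-REx library. The ratio of the means was 1.07, and by class it ranged from 1.06 for large-subunit proteins with a bacterial homologue to 1.10 for small-subunit proteins specific to mitochondria. All 4 classes held members that rose. In the large subunit they were 9 of 30 with a bacterial homologue and 5 of 20 specific to mitochondria. In the small subunit they were 4 of 16 with a bacterial homologue and 5 of 10 specific to mitochondria. The class medians were 0.09, 0.10, 0.11 and 0.13 in the same order. Without TC4-2A replicate 1 the 9 large-subunit members with a bacterial homologue were 5, and with DESeq2 they were 4.

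**Figure D2:**
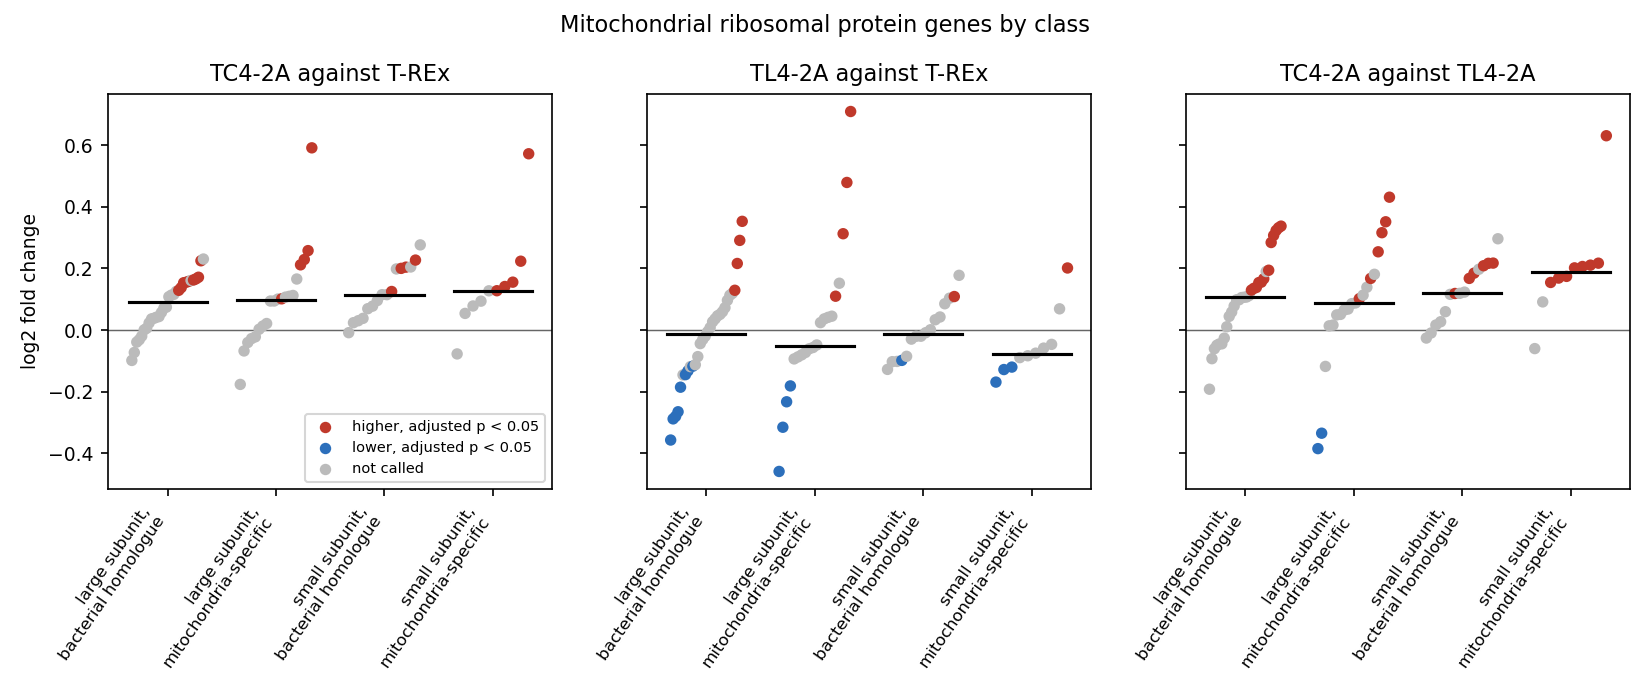
Log2 fold change of each of 76 members (points, sorted within a class) in the 3 comparisons, by class, with the class median as a bar. Red and blue mark members called higher and lower at an adjusted p under 0.05 (edgeR), and grey those not called. The class medians lie at 0.09 to 0.13 in TC4-2A against T-REx and at -0.08 to -0.01 in TL4-2A against T-REx cells.

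Members given for the largest changes, here and below, were picked among called ones whose libraries of the 2 lines did not overlap. Their lack of overlap was thus fixed by that rule. Among proteins of the large subunit, MRPL38 increased most in the TC4-2A line but had few counts. It had 2.97, 3.01 and 3.23 CPM in T-REx and 4.80, 4.13 and 4.997 CPM in TC4-2A cells, without overlap, and its log2 fold change was 0.59 (SE 0.15, edgeR, adjusted p = 0.00178). With 45.1% of its exon bases shared with other genes, its reads cannot be assigned with certainty. MRPL39, specific to mitochondria, had 67.7, 72.7 and 72.9 CPM in T-REx and 86.3, 82.97 and 85.9 CPM in TC4-2A cells. Every TC4-2A library lay above every T-REx library, with a log2 fold change of 0.26 (SE 0.04, edgeR, adjusted p = 9.40e-06). MRPL49 went from 41.3, 45.4 and 41.1 CPM to 51.8, 47.9 and 50.1 CPM, also without overlap, a log2 fold change of 0.23 (SE 0.05, edgeR, adjusted p = 0.000630). MRPL42, whose start carries a YY1 core, had 249.9, 260.2 and 255 CPM in T-REx and 279, 310.0 and 298 CPM in TC4-2A cells and rose by 0.21 on the log2 scale (edgeR, adjusted p = 1.53e-06). MRPL21, a homologue of bacterial L21, rose by 0.22 (edgeR, adjusted p = 0.00317), and this call was lost without TC4-2A replicate 2 (edgeR, adjusted p = 0.0764). The other large-subunit members that rose were MRPL9, MRPL10, MRPL15, MRPL16, MRPL19, MRPL28, MRPL30, MRPL37 and MRPL55, by 0.10 (MRPL37) to 0.17 (MRPL28) on the log2 scale. MRPL37 lost its call without T-REx replicate 3, TC4-2A replicate 1 or TC4-2A replicate 2 (edgeR, adjusted p = 0.132, 0.140 and 0.0526).

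In the small subunit MRPS33 stood out. It had 33.8, 33.1 and 33.5 CPM in T-REx and 53.4, 48.96 and 46.7 CPM in TC4-2A cells. The T-REx libraries were close together, and the lowest TC4-2A library lay well above them. The log2 fold change was 0.57 (SE 0.05, edgeR, adjusted p = 2.31e-11). MRPS2, a homologue of bacterial S2, had 53.9, 59.2 and 57.4 CPM in T-REx and 70.6, 61.5 and 67.7 CPM in TC4-2A cells, with a log2 fold change of 0.23 (SE 0.05, edgeR, adjusted p = 0.000680). MRPS31 had 28.5, 28.8 and 25.9 and 32.7, 32.5 and 32.02 CPM, with a log2 fold change of 0.22 (SE 0.05, edgeR, adjusted p = 0.000607). In neither gene did the libraries of the lines overlap. MRPS5, MRPS7, MRPS11, MRPS23, MRPS25 and MRPS27 rose by 0.13 (MRPS5) to 0.20 (MRPS11) on the log2 scale. MRPS31 also has 4 annotated pseudogenes with 4.88 CPM in all, against 27.7 CPM for the gene itself in T-REx cells, so reads could be split among them. MRPS34, of the highest level per kilobase, had a log2 fold change of 0.09 and was not called (edgeR, adjusted p = 0.0769). It was called without TC4-2A replicate 2 (edgeR, adjusted p = 0.0431) and without TC4-2A replicate 3 (edgeR, adjusted p = 0.0305).

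**Figure D3:**
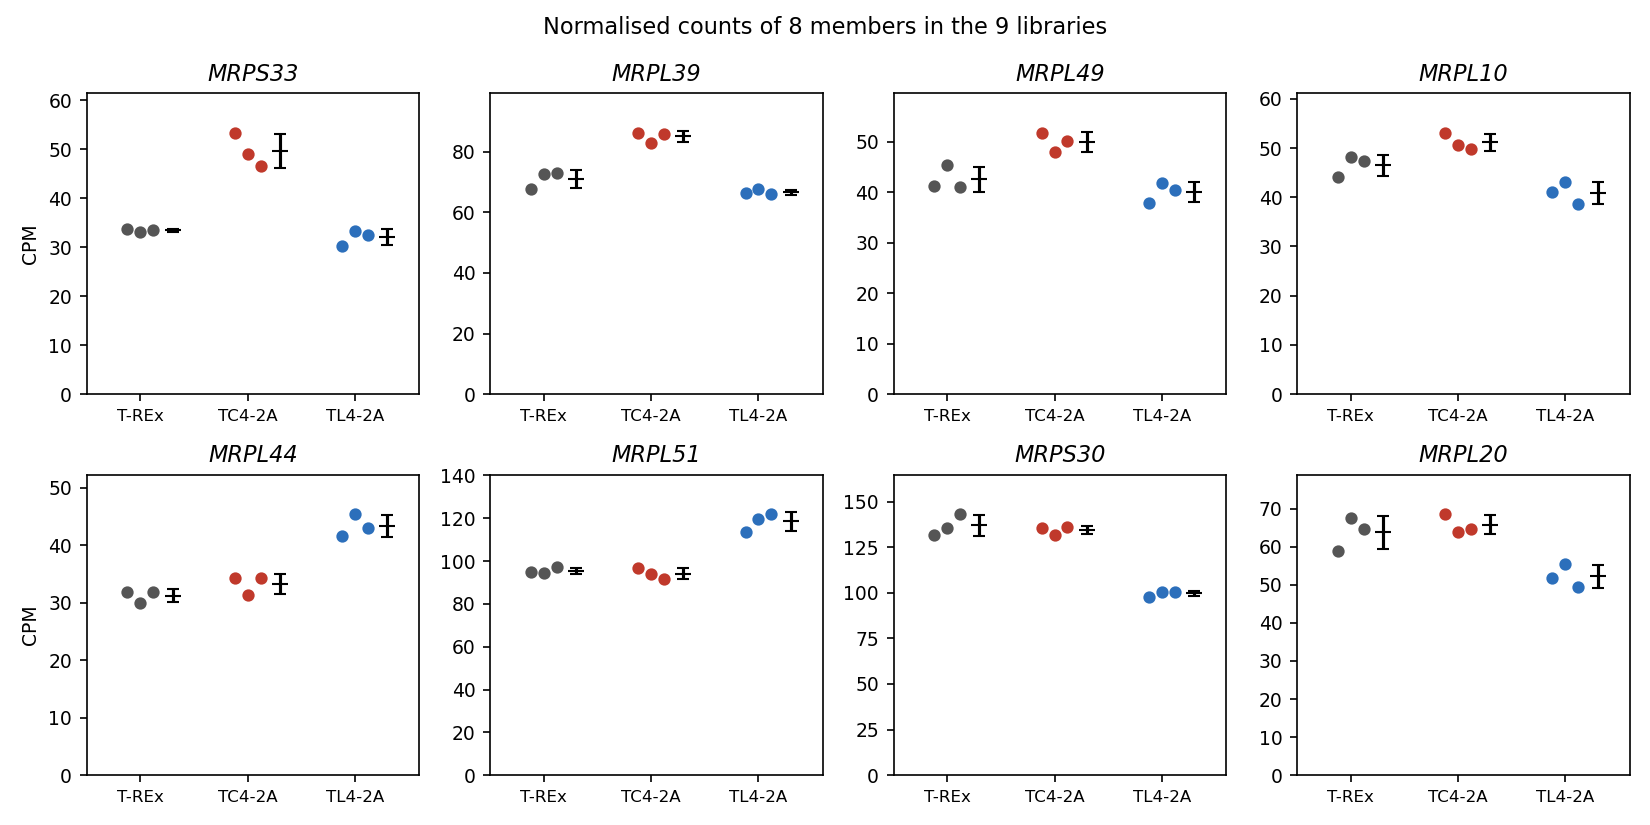
Normalised counts (CPM, y axis from 0) of 8 members in each library (points), grouped by line, with the mean and SD of the 3 libraries beside them. MRPS33, MRPL39, MRPL49 and MRPL10 (top) are highest in TC4-2A cells, MRPL44 and MRPL51 are highest and MRPS30 and MRPL20 lowest in TL4-2A cells.

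In TL4-2A cells, members moved both ways. Compared with T-REx cells 10 of the 77 rose (13%) and 17 fell (22.1%), while 21.9% of all genes tested rose and 22.5% fell. Both shares of the members thus lay at or under those of all genes. With DESeq2 6 rose and 8 fell, and 10 fell without T-REx replicate 2 as well as without TL4-2A replicate 1. The members' median log2 fold change was -0.03, against 0.00 over all genes. The summed level of the members was 3958, 4115 and 4011 CPM, overlapping the T-REx libraries. The decreases were 8 with a bacterial homologue and 4 specific to mitochondria in the large subunit, and 1 and 3 in the small subunit. The increases were 4, 4, 1 and 1 in the same order. The small-subunit calls specific to mitochondria, 4 in all, were 2 without T-REx replicate 3 or TL4-2A replicate 1.

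Of the members that fell in TL4-2A cells, MRPS30 fell most. MRPS30, a large-subunit protein despite its symbol, had 132, 136 and 143 CPM in T-REx and 97.96, 101 and 100.3 CPM in TL4-2A cells. The TL4-2A libraries were tightly grouped below all others, with a log2 fold change of -0.46 (SE 0.04, edgeR, adjusted p = 4.39e-13). MRPL1, the protein of the mobile L1 stalk, had 15.5, 16.9 and 14.2 and 11.3, 12.5 and 12.7 CPM, with a log2 fold change of -0.36 (SE 0.08, edgeR, adjusted p = 0.000600). MRPL20, a homologue of a bacterial assembly protein and with 2 ETS cores before its start, had 59.02, 67.6 and 64.8 CPM in T-REx and 51.8, 55.5 and 49.5 CPM in TL4-2A cells. The libraries of the lines did not overlap for either gene, and the log2 fold change of MRPL20 was -0.29 (SE 0.05, edgeR, adjusted p = 2.31e-05). MRPL52 fell by 0.32 on the log2 scale (edgeR, adjusted p = 0.000562), MRPL47 by 0.28 (edgeR, adjusted p = 0.00106) and MRPL13 by 0.26 (edgeR, adjusted p = 0.00114). MRPL58, a peptidyl-tRNA hydrolase that became part of the large subunit, fell by 0.23 (edgeR, adjusted p = 0.0103). MRPS36 fell by 0.21 (edgeR, adjusted p = 0.0306). The other 9 members that fell were MRPL10, MRPL18, MRPL22, MRPL55, MRPL57, MRPS18B, MRPS21, MRPS22 and MRPS35, with log2 fold changes of -0.19 (MRPL10) to -0.10 (MRPS21).

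The rises in TL4-2A cells included MRPL38, at 5.27, 4.49 and 5.36 CPM, with a log2 fold change of 0.71 (SE 0.15, edgeR, adjusted p = 0.000151) and the same doubt about shared exons. MRPL44, a protein with a fold related to RNase III, had 31.8, 29.9 and 31.9 CPM in T-REx and 41.7, 45.5 and 43.03 CPM in TL4-2A cells. All TL4-2A libraries lay above all T-REx libraries, with a log2 fold change of 0.48 (SE 0.05, edgeR, adjusted p = 9.07e-10). MRPL51, a large-subunit protein, had 94.9, 94.6 and 97.04 and 114, 119.9 and 122 CPM, a log2 fold change of 0.31 (SE 0.04, edgeR, adjusted p = 1.66e-08). MRPL28 had 89.3, 85.2 and 91.4 CPM in T-REx and 105, 104 and 99.5 CPM in TL4-2A cells, a log2 fold change of 0.22 (SE 0.04, edgeR, adjusted p = 6.88e-05). In TC4-2A cells MRPL28 also rose, to 105, 101 and 93.6 CPM. MRPS25 rose by 0.20 on the log2 scale (edgeR, adjusted p = 4.64e-05). MRPL12, which forms the flexible stalk that recruits translation factors, rose by 0.29 (edgeR, adjusted p = 0.0110). MRPL23 and MRPL24, which line the exit of the peptide tunnel, rose by 0.35 and 0.13 (edgeR, adjusted p = 0.0198 and 0.0329).

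Several of the smaller TL4-2A calls rested on a library and on the tool. DESeq2 called none of the 7 named here, with adjusted p = 0.0520 for MRPL12, 0.0873 for MRPL23, 0.0872 for MRPL24, 0.0606 for MRPL58, 0.0776 for MRPS18B, 0.0642 for MRPS21 and 0.130 for MRPS36. MRPS21, which fell by 0.10 (edgeR, adjusted p = 0.0299), lost its call without T-REx replicate 2 or 3 and without TL4-2A replicate 1 or 2 (edgeR, adjusted p = 0.109, 0.0581, 0.0855 and 0.0995). The call of MRPL12 was lost without TL4-2A replicate 3 (edgeR, adjusted p = 0.0941). That of MRPL23 was lost without T-REx replicate 1 (edgeR, adjusted p = 0.129) and without TL4-2A replicate 1 (edgeR, adjusted p = 0.0512). That of MRPL58 was lost without T-REx replicate 2 (edgeR, adjusted p = 0.0806) and without TL4-2A replicate 1 (edgeR, adjusted p = 0.0746). MRPS36 lost its call without T-REx replicate 2, TL4-2A replicate 1 or TL4-2A replicate 2 (edgeR, adjusted p = 0.147, 0.106 and 0.0598). MRPL24 lost its call without T-REx replicate 2 or 3 and without TL4-2A replicate 1 or 2 (edgeR, adjusted p = 0.165, 0.0777, 0.0798 and 0.0749). MRPS18B lost its call without the same 4 libraries (edgeR, adjusted p = 0.104, 0.105, 0.105 and 0.0739).

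The lines were also compared with each other directly, which tests the difference between the circular and the linear RNA line without the T-REx libraries in the contrast. Of the 77 members 32 were higher in TC4-2A than in TL4-2A cells (41.6%) and 2 were lower (2.6%), against 17.6% and 17.8% of all genes tested. The median log2 difference was 0.12, against 0.00 over all genes. The members higher in TC4-2A cells were 12 of 30 large-subunit proteins with a bacterial homologue and 6 of 20 specific to mitochondria. In the small subunit they were 6 of 16 and 8 of 10 in the same order. The difference was largest for MRPS33, with 30.3, 33.3 and 32.6 CPM in TL4-2A cells and a log2 difference of 0.63 (SE 0.05, edgeR, adjusted p = 1.82e-12). MRPS30 followed with 0.43 (SE 0.04, edgeR, adjusted p = 2.29e-12), MRPL39 with 0.35 (SE 0.04, edgeR, adjusted p = 2.04e-08) and MRPL47, a homologue of bacterial L29, with 0.34 (SE 0.07, edgeR, adjusted p = 0.000131). The lower members were MRPL44, with -0.38 (SE 0.05, edgeR, adjusted p = 9.57e-08), and MRPL51, with -0.33 (SE 0.04, edgeR, adjusted p = 3.80e-09).

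MRPL10 and MRPL55 were called higher in one line and lower in the other against the shared T-REx libraries. MRPL10, which anchors the stalk of MRPL12 to the ribosome, had 44.1, 48.1 and 47.3 CPM in T-REx, 53.1, 50.7 and 49.8 CPM in the TC4-2A line and 40.99, 43.1 and 38.6 CPM in TL4-2A cells. The 3 lines did not overlap, and the log2 fold change was 0.14 (SE 0.05, edgeR, adjusted p = 0.0350) in the TC4-2A line and -0.19 (SE 0.05, edgeR, adjusted p = 0.00376) in TL4-2A cells. MRPL55 had 37.97, 36.01 and 38.8 CPM in T-REx, 45.1, 40.9 and 40.03 CPM in the TC4-2A line and 34.03, 35.5 and 32.3 CPM in TL4-2A cells, again without overlap. Its log2 fold changes were 0.16 (SE 0.05, edgeR, adjusted p = 0.0150) and -0.14 (SE 0.05, edgeR, adjusted p = 0.0284). The TC4-2A call of MRPL10 was lost with DESeq2 (adjusted p = 0.0987) and both calls of MRPL55 likewise (adjusted p = 0.0727 and 0.109). MRPL10 also lost it without T-REx replicate 1 or TC4-2A replicate 1 (edgeR, adjusted p = 0.168 and 0.125). MRPL55 lost its TC4-2A call without T-REx replicate 2 or TC4-2A replicate 1 (edgeR, adjusted p = 0.0789 and 0.141). It lost its TL4-2A call without T-REx replicate 1 or 3 or TL4-2A replicate 3 (edgeR, adjusted p = 0.0533, 0.0917 and 0.129).

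Several members with large differences stood in runs of neighbouring genes that moved the same way. For each member the 10 tested genes on either side along its chromosome were read, and their median log2 fold change was taken. MRPS33 lies on chromosome 7 from 141002610 to 141015228 (GRCh38). Its 20 neighbours had a median of 0.46 in TC4-2A against T-REx cells, and 15 of them rose. Over all genes tested 14.2% rose in TC4-2A cells, which is the background for the TC4-2A counts given here. The mitochondrial single-stranded DNA-binding protein SSBP1, from 141738334 to 141787922 on the same chromosome, is the last gene of that window. It rose from 105 ± 7.45 CPM in T-REx to 158 ± 3.56 CPM in TC4-2A cells (SD, n = 3), a log2 fold change of 0.60 (SE 0.04, edgeR, adjusted p = 1.19e-14). The neighbours of MRPL39, on chromosome 21 from 25585656 to 25607517, had a median of 0.23, and 9 of 20 rose. The neighbours of MRPS31, on chromosome 13 from 40729128 to 40771190, had a median of 0.25, and 10 of 20 rose. In TL4-2A cells the neighbours of MRPS31 had a median of 0.28 with 13 higher, whereas MRPS31 itself had a log2 fold change of 0.07 and was not called.

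Similar runs lay around several, but not all, of the members that differed most in TL4-2A cells. The neighbours of MRPL44, on chromosome 2 from 223957463 to 223967714, had a median log2 fold change of 0.49 in TL4-2A against T-REx cells, with 15 of 20 higher. Those of MRPL51, on chromosome 12 from 6491886 to 6493841, had a median of 0.41, with 14 higher. MRPL28 rose less, and its neighbours had a median of 0.24, with 8 of 20 higher. MRPS30 lies on chromosome 5 from 44808947 to 44820428, and its neighbours had a median of -0.43, with 14 lower. MRPL20 lies on chromosome 1 from 1401909 to 1407293, and its neighbours had a median of -0.39, with 16 lower. One of these neighbours, AURKAIP1, from 1373730 to 1375207, encodes a mitoribosomal protein too, one of the small subunit. It fell from 51.8 ± 1.93 CPM in T-REx to 38.4 ± 0.792 CPM in TL4-2A cells, a log2 fold change of -0.43 (SE 0.05, edgeR, adjusted p = 1.60e-08). Over all genes tested 21.9% rose and 22.5% fell in TL4-2A cells, which is the background for these counts of neighbours.

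Other members had neighbours whose median lay nearer 0 than their own change. The neighbours of MRPL49 had a median of 0.11 in TC4-2A against T-REx cells, MRPS2 of 0.04 and MRPL42 of -0.04. With 5 neighbours a side these were 0.05, 0.02 and 0.04. In TL4-2A cells the neighbours of MRPL1 had a median of -0.05, and those of MRPL52 had -0.14. Those of MRPL38, which rose most there, had a median of -0.01, and those of MRPL23 had -0.07. Without the 4 members whose neighbours' median lay beyond 0.2 on the log2 scale in TC4-2A against T-REx cells, 20 of 73 members rose. Of all genes tested 14.2% rose in that comparison. Without 7 such members in TL4-2A cells, 7 of 70 rose and 15 fell, shares under the 21.9% and 22.5% of all genes tested. Between the lines, without 8 such members, 27 of 69 were higher in TC4-2A cells, against 17.6% of all genes tested. MRPL44 and MRPL51 were among those left out. The medians of the members that remained were 0.10, -0.04 and 0.11. Whether the copy number of these regions differed among the lines was not tested.

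**Figure D4:**
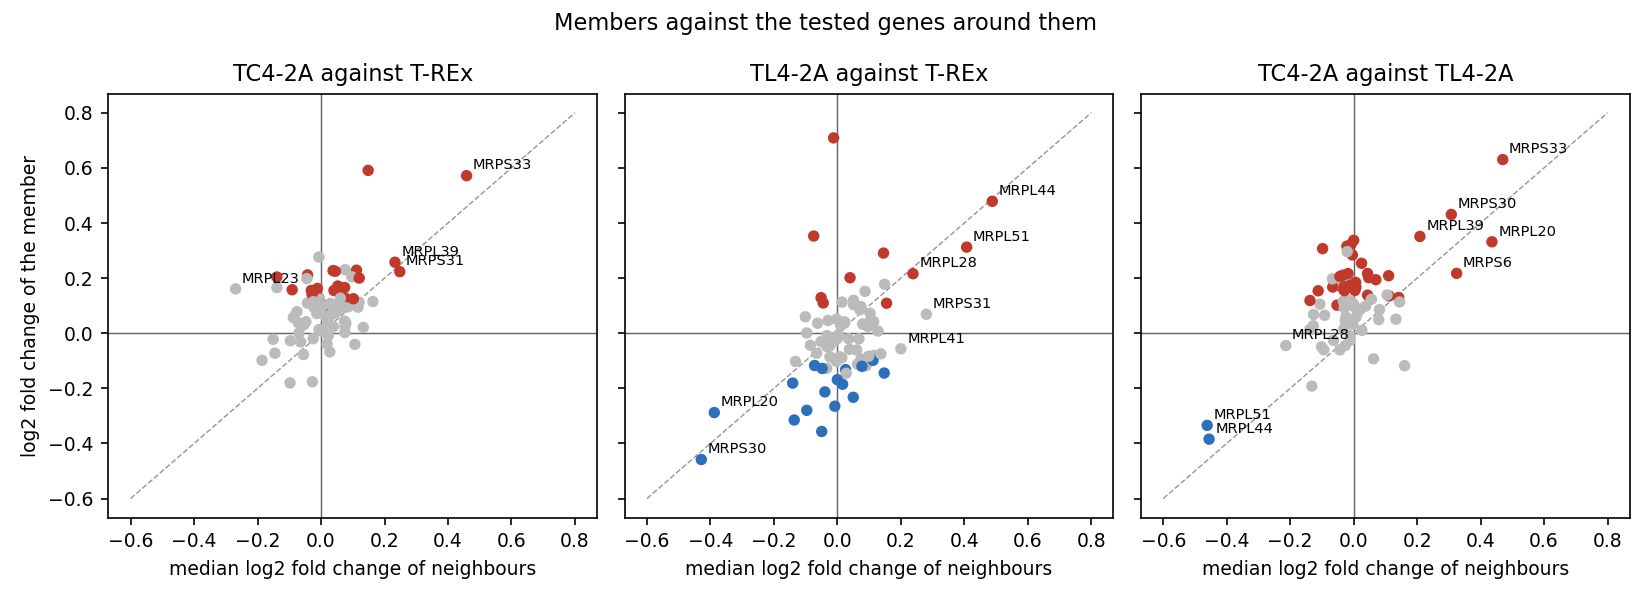
Log2 fold change of each of the 77 members tested (y axis) against the median of the tested genes around it, 10 on each side where present (x axis), in the 3 comparisons. Red and blue mark members called higher and lower, the dashed line is equality, and members with neighbours beyond 0.2 are named. MRPS33, MRPL44, MRPL51, MRPS30 and MRPL20 lie near the dashed line.

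Many members share a start region with another gene. A protein-coding gene transcribed in the opposite direction started within 1000 bases of 17 of the 78 members (21.8%), against 8.54% of all 20046 protein-coding genes. The latter include genes not expressed in these cells, whereas 77 of the 78 members passed the expression filter. The share over tested genes only was not computed. One of the pairs with close starts consists of members of both subunits. MRPL46 and MRPS11 lie head to head on chromosome 15, from 88459477 to 88467390 and from 88467453 to 88480776. The bases between them, read on the strand of MRPL46, are as follows, and they hold no ETS core.
MRPL46 (chr15:88467391-88467452, minus strand): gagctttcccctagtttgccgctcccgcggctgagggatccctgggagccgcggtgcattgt
MRPL46 had 12.9, 12.2 and 12.7 CPM in T-REx, 13.7, 14.4 and 14.3 CPM in the TC4-2A line and 13.9, 13.96 and 14.1 CPM in TL4-2A cells, and T-REx was lowest without overlap. Its log2 fold change in TC4-2A cells was 0.17 (edgeR, adjusted p = 0.102), and it was not called. MRPS11 had a log2 fold change of 0.20 (SE 0.05, edgeR, adjusted p = 0.000629) and was called. MRPL49 starts 6 bases from FAU, which encodes a fusion of a ubiquitin-like protein and the cytosolic ribosomal protein S30. In TC4-2A cells MRPL49 rose by 0.23 and FAU by 0.10 (edgeR, adjusted p = 0.0307). Between the lines MRPL49 differed by 0.32 and FAU by 0.24. MRPS12 starts 181 bases from SARS2, the mitochondrial seryl-tRNA synthetase. SARS2 rose by 0.42 in the TC4-2A line and 0.38 in TL4-2A cells, while MRPS12 had log2 fold changes of 0.10 and -0.02 and was not called in either.

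Proteins of the mitoribosome with other symbols numbered 5. DAP3, the GTP-binding protein of the small subunit, had 106 ± 0.879 CPM in T-REx, 112 ± 3.58 in the TC4-2A line and 103 ± 1.26 in TL4-2A cells (SD, n = 3). Between the lines its log2 difference was 0.12 (SE 0.04, edgeR, adjusted p = 0.0103), a call lost without TC4-2A replicate 1 (edgeR, adjusted p = 0.0520). Against T-REx cells its TC4-2A value was 0.09 (edgeR, adjusted p = 0.0584), which was called without TC4-2A replicate 3 (0.0310), with the replicate number as a block (0.0458) and with at least 10 counts in every library (0.0401). GADD45GIP1 and PTCD3 rose in TC4-2A cells by 0.12 and 0.07 (edgeR, adjusted p = 0.0257 and 0.0463). DESeq2 called neither (adjusted p = 0.0517 and 0.0899). GADD45GIP1 also lost its call without T-REx replicate 1 or 2 or TC4-2A replicate 1 (edgeR, adjusted p = 0.108, 0.111 and 0.148). PTCD3 lost it without any 1 of the 9 libraries (edgeR, adjusted p = 0.0511 to 0.184). CHCHD1 had log2 fold changes of 0.05 in the TC4-2A line and -0.05 in TL4-2A cells and was not called.

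For the lists that follow, the shares over all genes tested are those given for the members, namely 14.2% and 14.6% (higher and lower) for the TC4-2A line, and 21.9% and 22.5% for the TL4-2A line. Neighbours were read around members only, so runs of moving genes around the genes of these lists were not tested. Of 26 genes that assemble the mitoribosome or modify its rRNA 8 were called in TC4-2A cells, each higher (30.8%), and in TL4-2A cells 10 rose (38.5%) and 3 fell (11.5%), with medians of 0.10 and 0.12. RBFA, which binds the small subunit during its maturation, rose from 26.98 ± 1.61 CPM in T-REx to 43.7 ± 3.92 CPM in TC4-2A cells, a log2 fold change of 0.69 (SE 0.06, edgeR, adjusted p = 1.10e-12). MTERF4, which recruits the rRNA methyltransferase NSUN4, rose to 61.7 ± 1.44 CPM in TL4-2A cells from 33.4 ± 1.61 CPM, a log2 fold change of 0.89 (SE 0.05, edgeR, adjusted p = 5.13e-17). MTG1, a GTPase of large-subunit assembly, had a log2 fold change of 0.58 (SE 0.07, edgeR, adjusted p = 2.76e-09) in TL4-2A cells and was not called in TC4-2A cells. DHX30, an RNA helicase, rose in both lines, by 0.27 and 0.24. FASTKD2, which binds the rRNA of the large subunit, rose in TL4-2A cells by 0.47 (edgeR, adjusted p = 3.43e-10).

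Of 18 mitochondrial translation factors 4 rose (22.2%) and 2 fell (11.1%) in TC4-2A cells, while 3 rose and 3 fell (16.7% each) in the TL4-2A line, and their medians were 0.00 and -0.01. In TC4-2A cells only 2 of them were called without T-REx replicate 2. TUFM, the mitochondrial elongation factor Tu, had 323 ± 6.004 CPM in T-REx and 297 ± 5.41 CPM in TL4-2A cells and fell by 0.12 (edgeR, adjusted p = 0.000878). The release factor gene MTRF1 rose by 0.32 in the TC4-2A line and 0.38 in TL4-2A cells. The ribosome recycling factor MRRF rose by 0.18 in TC4-2A cells (edgeR, adjusted p = 0.00393). METAP1D, which removes the initiator methionine, rose by 0.20 and 0.52 in the 2 lines.

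Imported proteins pass through translocases and are then trimmed and matured. Of 16 genes for import and maturation 10 were called in TC4-2A cells, each higher (62.5%, against 14.2% of all genes), with a median log2 fold change of 0.14. In TL4-2A cells 3 rose and 3 fell (18.8% each, under the 21.9% and 22.5% of all genes), with a median of 0.02. PMPCB, a subunit of the protease that removes import signals, had 93.04 ± 3.81 CPM in T-REx, 116 ± 4.10 CPM in the TC4-2A line and 87.8 ± 3.50 CPM in TL4-2A cells, with a log2 fold change of 0.31 (SE 0.04, edgeR, adjusted p = 9.86e-08) in TC4-2A cells. SPG7, a subunit of the protease that matures MRPL32, rose by 0.30 (edgeR, adjusted p = 4.28e-08). The import receptor TOMM20 fell by 0.27 in TL4-2A cells (edgeR, adjusted p = 7.60e-11), whereas TOMM22 rose by 0.22 (edgeR, adjusted p = 2.93e-05).

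Of 11 genes for mitochondrial transcription and DNA replication 6 were called in TC4-2A cells, each higher (54.5%, against 14.2% of all genes), and 3 rose (27.3%) and 1 fell (9.09%) in TL4-2A cells, against 21.9% and 22.5%. The medians were 0.14 and -0.04. POLG and POLG2, subunits of the mitochondrial DNA polymerase, rose in both lines. Their log2 fold changes were 0.21 and 0.34 in the TC4-2A line and 0.20 and 0.59 in TL4-2A cells. Of 13 genes for mitochondrial RNA processing and decay 6 rose (46.2%) and 1 fell (7.69%) in TC4-2A cells, and 6 rose (46.2%) and 2 fell (15.4%) in TL4-2A cells. FASTK rose in both lines, by 0.41 and 0.26, and so did the tRNA-processing enzyme ELAC2, by 0.13 and 0.12. FASTKD1 rose in TL4-2A cells, by 0.63, and differed between the lines by -0.62 (edgeR, adjusted p = 2.58e-13). HSD17B10, a subunit of mitochondrial RNase P, fell by 0.21 in TL4-2A cells (edgeR, adjusted p = 8.72e-05).

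Among 9 regulators of nuclear genes for mitochondrial proteins, 6 rose (66.7%, against 14.2% of all genes) and 1 fell (11.1%, against 14.6%) in TC4-2A cells. In the TL4-2A line 4 rose (44.4%, against 21.9%) and 2 fell (22.2%, against 22.5%). MYC had 162 ± 3.95 CPM in T-REx, 196 ± 5.95 CPM in the TC4-2A line and 124 ± 4.99 CPM in TL4-2A cells. Its log2 fold changes were 0.27 (SE 0.03, edgeR, adjusted p = 2.39e-08) and -0.38 (SE 0.03, edgeR, adjusted p = 7.23e-12), so that it lay above T-REx in the one line and below it in the other. GABPA, an ETS-family factor, rose by 0.28 in the TC4-2A line and 0.13 in TL4-2A cells (edgeR, adjusted p = 4.81e-08 and 0.00296). It lies among the neighbours of MRPL39 on chromosome 21, from 25734570 to 25772460. PPRC1, a coactivator related to PGC-1, rose by 0.44 and 0.40. Whether any of these regulators acts on the members was not tested.

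The members whose log2 CPM over the 9 libraries was most like the sum of all other members were MRPS33 (Pearson r = 0.95), MRPL49 (0.94), MRPS7 (0.94) and MRPL39 (0.94). The value is a description over 9 libraries that share the 3 lines and the scaling, so a gene higher in TC4-2A cells scores high. MRPS7, a homologue of bacterial S7, had 62.4, 66.1 and 66.8 CPM in T-REx, 76.6, 72.9 and 74.95 CPM in the TC4-2A line and 60.9, 65.6 and 67.7 CPM in TL4-2A cells, with the TC4-2A libraries above all others. Its log2 fold change was 0.20 (SE 0.05, edgeR, adjusted p = 0.000846) in TC4-2A cells. At the other end MRPL51 had r = -0.55 and MRPL44 had r = -0.35. The 79 pseudogenes named for members summed to 8.63 CPM, and 6 of them passed the expression filter.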

How the data were processed

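Total RNA of all Dox-treated lines was extracted with TRIzol, treated with DNase, depleted of rRNA and made into directional libraries, 3 per line. According to the submitters' notes, the authors aligned reads to GRCh38 with HISAT2, counted them per Gencode (release 33) gene with featureCounts and ran DESeq2. The sources used here do not give its settings for strand or multiply mapped reads. The deposited count table holds raw counts per gene, 16561680 to 21491977 per library. Columns headed Circ and Lin were taken as TC4-2A and TL4-2A from the labels. The authors' own log2 fold changes, standard errors and p-values were not used. Of its lines, 60648 entered the analysis and 3 damaged ones did not, and 44 lines are pseudoautosomal copies on chromosome Y. Gencode release 44 gave class, position and exon length for 60462 (99.69%) of the IDs.

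Genes were kept with edgeR's filter on low counts (19473 genes), scaled by TMM and fitted over all 9 libraries with the quasi-likelihood test in edgeR (4.0.16, limma 3.58.1, R 4.3.3). P-values were adjusted by Benjamini and Hochberg over all genes tested, and the threshold was 0.05. CPM values were computed here from the counts and TMM sizes. Precision is limited by the 3 libraries per line. Members and lists were chosen with earlier results of these data known. The members named were, by rule, up to 8 with the largest change in each direction of a comparison. These had to be called and to show no overlap between the libraries of the 2 lines. Also named were 5 at each end of the level order, the S18 homologues, and members called in opposite directions. From every other list up to 2 called genes were named per comparison, and likeness named 4. Others named in lists of calls or pairs were added after their values were seen. Promoter windows are RefSeq's (GRCh38.p14).

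Alternatives were DESeq2 (1.42.0), RLE scaling, no filter, a minimum of 10 counts per library, a fit to only 2 lines, a block for the replicate number, 5 neighbours a side, another exon length and leaving out each library. Leaving out members in moving neighbourhoods was added after seeing the data. The scripts were tested on simulated data. Tables and plots were made with pandas 2.3.3, numpy 2.4.6 and matplotlib 3.10.9 under Python 3.11.15.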

Additional observations from a re-analysis of the deposited data

Results flagged for a closer look

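The difference between the lines was tested itself, by the TC4-2A against TL4-2A contrast of edgeR. By it 32 of the 77 members were higher and 2 lower, against 17.6% and 17.8% of all genes tested. The 10 members given here had the largest differences and, by the naming rule, no overlap between the libraries of the 2 lines. The values are TC4-2A minus TL4-2A on the log2 scale. Those higher in TC4-2A cells were MRPS33 (0.63), MRPS30 (0.43), MRPL39 (0.35), MRPL47 (0.34), MRPL20 (0.33), MRPL10 (0.32), MRPL49 (0.32) and MRPL55 (0.31). Those lower were MRPL44 (-0.38) and MRPL51 (-0.33). For MRPS33, MRPS30, MRPL39, MRPL20, MRPL44 and MRPL51 the 20 tested genes around them had medians of 0.47, 0.31, 0.21, 0.44, -0.46 and -0.46 in the same contrast. The part of these neighbourhoods in the difference was not tested.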

How the results depend on the processing

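Members higher in TC4-2A than in T-REx cells numbered 23, and 17 with DESeq2. With DESeq2 the members higher and lower in TL4-2A cells fell from 10 and 17 to 6 and 8. DESeq2 also called 4 in place of 9 large-subunit members with a bacterial homologue in TC4-2A cells and 6 in place of 12 in TL4-2A cells. In TL4-2A cells it called 0 of the small-subunit members with a bacterial homologue, 1 without the filter, in place of 2, and 2 in place of 4 of those specific to mitochondria. Of the proteins with other symbols in TC4-2A cells, DESeq2 called 0, and the fits without the filter or with only the 2 lines called 1, in place of 2. The cause of these changes was not tested. Without members in moving neighbourhoods, an alternative chosen after seeing the data, 0 members were lower in TC4-2A than in TL4-2A cells, since both had been left out.

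Leaving out 1 library at a time gave 0 to 1 members lower in TC4-2A than in T-REx cells and 10 to 18 lower in TL4-2A cells. The lowest of these, 10, came without T-REx replicate 2 or TL4-2A replicate 1. Large-subunit members with a bacterial homologue called in TC4-2A cells numbered 5 to 10. In TL4-2A cells the small-subunit members called numbered 1 to 3 with a bacterial homologue and 2 to 4 specific to mitochondria. Proteins with other symbols numbered 0 to 2 in TC4-2A cells and 1 to 3 between the lines, and translation factors 2 to 6 and 3 to 5. The sign changed for differences that were not called. These were AURKAIP1 (-0.0112 to 0.0835), CHCHD1 (-0.00711 to 0.0979) and MRPS18C (-0.0683 to 0.0361) in TC4-2A cells, GADD45GIP1 (-0.00562 to 0.0537) and MRPS7 (-0.0412 to 0.0308) in TL4-2A cells, and MRPL46 (-0.000638 to 0.0342) and MRPS24 (-0.131 to 0.232) between the lines.

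Libraries of the same number did not deviate together (correlations of -0.03 to 0.03), so the numbers do not pair them. With the replicate block 26 members were higher and 1 was lower in the TC4-2A line, 11 and 17 in the TL4-2A line, and 32 and 2 between them.

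With 5 in place of 10 neighbours a side, the median around MRPL20 between the lines went from 0.44 to 0.63, and around MRPL28 from -0.21 to -0.08. In TL4-2A cells that around MRPL44 went from 0.49 to 0.38 and that around MRPS31 from 0.28 to 0.39.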
